A study of Mus musculus with 5 samples.

Results

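The endothelin system was examined in chromatin of mouse epidermis, as 7 genes taken by name from the 21631 protein-coding genes on the chromosomes of the deposited lists. They were the ligand genes Edn1, Edn2 and Edn3, the receptor genes Ednra and Ednrb, and the converting enzyme genes Ece1 and Ece2. For each gene, called regions of H3K27me3 and H2AK119ub were read over the gene body plus 50 kb on each side. H3K27me3 is histone H3 trimethylated on lysine by Polycomb repressive complex 2, and H2AK119ub is histone H2A monoubiquitinated by Polycomb repressive complex 1.

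The chromatin came from basal progenitor cells sorted from adult back skin at postnatal day 71. All groups were control mice carrying the K14-RFP and K10-H2B-GFP reporters, in which keratin promoters label basal and suprabasal keratinocytes, and sorting by Sca1 and by these reporters kept Sca1(+), RFP(high) and GFP(-) cells. There were 2 libraries immunoprecipitated for H3K27me3, 2 for H2AK119ub and 1 input library. Whether the libraries came from separate mice is not stated in the labels. The data were 1 list of regions per mark, with 15102 regions of H3K27me3 and 33155 of H2AK119ub, and no height or replicate column. Neither read depth nor replicate error can be given from such lists, so the values below are descriptions and no test was made. Series-wide, none of 7 basal keratinocyte marker genes had H3K27me3 within 1 kb of an end and 6 had H2AK119ub. All 5 Merkel cell markers had both marks. Neighbouring markers are not separate observations. The Merkel markers Krt8 and Krt18 had regions of the same widths (82.3 and 77.6 kb), as had the basal markers Krt14 and Krt15 (202.3 kb of H2AK119ub). The Merkel marker Krt20 and the suprabasal marker Krt10 also had H2AK119ub regions of the same width (66.9 kb). Of 7 melanocyte markers 1 had H3K27me3 and 3 had H2AK119ub. Counts for H3K27me3 and H2AK119ub were 2 and 4 of 5 suprabasal, 4 and 3 of 5 fibroblast, 2 and 3 of 5 endothelial, and 2 and 2 of 4 immune markers. Over all protein-coding genes the shares were 24.7% and 57.1%, so that counts such as those of the melanocyte and endothelial markers lay near the background.

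Endothelins are short peptides cut from larger precursors. The converting enzymes make the final cut, and the peptides act on a pair of G protein-coupled receptors. Endothelin 1 and endothelin 2 bind both receptors with high affinity, while endothelin 3 favours the type B receptor encoded by Ednrb. Keratinocyte endothelin 1 stimulates growth and pigment production of melanocytes. Edn3 and Ednrb are needed for the melanocyte precursors of the neural crest, and mice lacking either gene have white spotting.

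The genes fell into 3 patterns. Edn1, Edn2 and Ece1 carried H2AK119ub over their 5' ends and bodies and had H3K27me3 only at a distance. Ednra and Ece2 carried both marks over the 5' end. Edn3 and Ednrb carried a short H3K27me3 region over the 5' end and no H2AK119ub anywhere in the window. Within 1 kb of a transcript start, H3K27me3 was thus called at 4 of the 7 genes, against 21.6% of the 17274 protein-coding genes with a known strand, and H2AK119ub at 5 of the 7, against 50.9%. H3K27me3 without H2AK119ub at the start was found at 2 of the 7 genes and at 3.4% of all genes with a known strand. Both marks were found at 2 of the 7 (18.2% of all), H2AK119ub alone at 3 of the 7 (32.8% of all), and no member had neither mark (45.7% of all). The same classes resulted when a region within 1 kb of either annotated end was counted, for which the shares of all genes were 24.7% for H3K27me3 and 57.1% for H2AK119ub. Called at both ends, H3K27me3 was found at 0 of the 7 genes (10.3% of all) and H2AK119ub at 4 of the 7 (34.1% of all). Inside the gene body, H3K27me3 was found at 4 of the 7 (25.7% of all) and H2AK119ub at 5 of the 7 (57.2% of all), and H2AK119ub covered the whole body of 2 of the 7, Edn1 and Edn2 (17.4% of all). With 7 genes these shares are a background for reading the counts and no test of a difference.

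**Figure D1:**
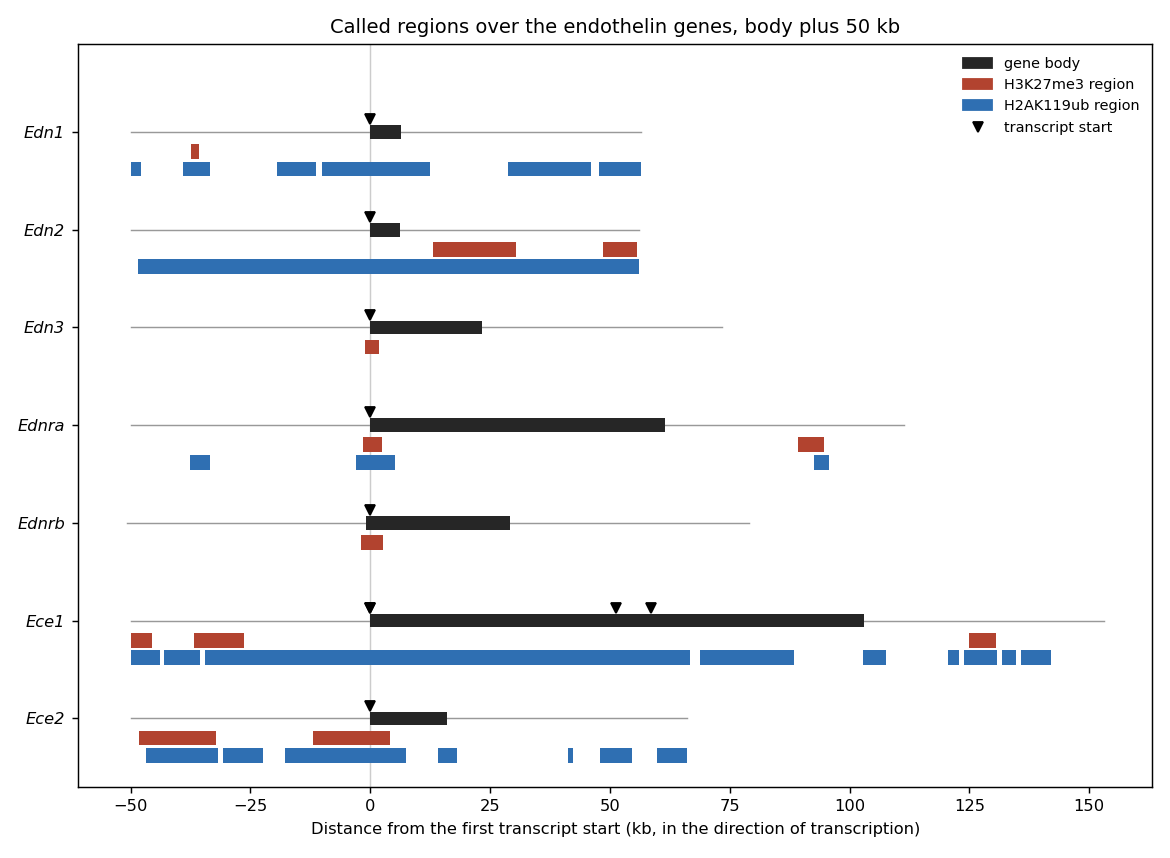
Map of the 7 endothelin genes, each drawn in its direction of transcription from left to right. The x axis is the distance in kb from the first transcript start, the grey line is the gene body plus 50 kb, the black bar is the gene body and triangles mark transcript starts, while coloured bars are called regions cut at the window. Edn3 and Ednrb have 1 short H3K27me3 bar at the start and no H2AK119ub bar, whereas H2AK119ub bars run over the starts of the other genes.

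The sequences at the 5' ends of the ligand and receptor genes are shown because the patterns differ there. Each is the RefSeq promoter window of mm10 (GRCm38.p6), from 250 bases before to 50 bases after the transcript start, 5' to 3' on the strand of the gene, with CpG dinucleotides in capitals. CpG-rich sequence is a common feature of mammalian promoters bound by Polycomb complexes. The windows are chr13:42301226-42301525 on the plus strand for Edn1, chr4:120160956-120161255 on the plus strand for Edn2 and chr2:174760369-174760668 on the plus strand for Edn3. Those of the receptor genes are chr8:77724403-77724702 on the minus strand for Ednra and chr14:103843652-103843951 on the minus strand for Ednrb.
Edn1: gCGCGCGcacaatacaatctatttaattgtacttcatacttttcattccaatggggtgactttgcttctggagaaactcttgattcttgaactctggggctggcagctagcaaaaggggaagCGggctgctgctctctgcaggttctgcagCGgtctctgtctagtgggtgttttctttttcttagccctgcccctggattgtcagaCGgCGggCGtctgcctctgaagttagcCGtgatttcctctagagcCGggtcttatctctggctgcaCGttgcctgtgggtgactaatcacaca
Edn2: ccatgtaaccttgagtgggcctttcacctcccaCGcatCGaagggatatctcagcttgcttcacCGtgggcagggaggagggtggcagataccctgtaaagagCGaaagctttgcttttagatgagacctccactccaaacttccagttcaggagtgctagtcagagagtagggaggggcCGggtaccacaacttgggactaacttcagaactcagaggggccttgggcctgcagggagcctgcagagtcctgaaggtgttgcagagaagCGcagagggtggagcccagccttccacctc
Edn3: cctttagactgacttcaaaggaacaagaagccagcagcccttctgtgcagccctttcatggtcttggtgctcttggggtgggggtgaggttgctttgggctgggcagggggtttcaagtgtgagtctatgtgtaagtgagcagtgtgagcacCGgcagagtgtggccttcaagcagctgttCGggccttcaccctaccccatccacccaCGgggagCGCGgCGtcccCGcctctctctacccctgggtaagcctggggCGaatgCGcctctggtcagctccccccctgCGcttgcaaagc
Ednra: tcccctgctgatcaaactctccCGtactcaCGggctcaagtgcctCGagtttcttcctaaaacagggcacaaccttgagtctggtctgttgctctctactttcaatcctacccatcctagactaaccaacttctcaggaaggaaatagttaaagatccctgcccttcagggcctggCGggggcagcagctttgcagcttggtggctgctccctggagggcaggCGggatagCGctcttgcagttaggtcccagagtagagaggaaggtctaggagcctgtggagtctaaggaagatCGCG
Ednrb: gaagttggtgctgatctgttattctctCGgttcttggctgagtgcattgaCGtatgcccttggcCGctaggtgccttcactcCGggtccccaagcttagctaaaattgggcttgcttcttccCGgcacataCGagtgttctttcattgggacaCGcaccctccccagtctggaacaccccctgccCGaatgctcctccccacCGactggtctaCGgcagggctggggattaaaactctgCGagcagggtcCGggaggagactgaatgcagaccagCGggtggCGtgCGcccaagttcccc

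The Ednrb window held 15 CpG dinucleotides, the Edn1 window 11, the Edn3 window 10, the Ednra window 8 and the Edn2 window 6. The median over 21037 promoter windows was 13, so that the Ednrb window alone among these 5 lay above it. Ece2 had 23 CpG dinucleotides, and the 4 transcript starts of Ece1 had 28, 26, 21 and 5, so that all enzyme windows but the last were richer than those of the ligands and receptors. Windows with H3K27me3 alone within 1 kb had a median of 7 CpG dinucleotides over 708 windows, against 16 over 3720 windows with both marks, 18 over 7144 with H2AK119ub alone and 7 over 9465 with neither. Edn3, Ednrb, Ece2 and the Ece1 starts with 28, 26 and 21 were above the medians of their classes. Ednra, Edn1, Edn2 and the Ece1 start with 5 were below theirs. The quartiles were 3 and 14 for H3K27me3 alone, 7 and 25 for both marks, and 7 and 28 for H2AK119ub alone. Only Ednrb, Edn2 and the last Ece1 start lay outside them. The ratio of observed to expected CpG was 0.359 at Edn3 and 0.582 at Ednrb, against a class median of 0.367. It was 0.357 at Ednra and 0.827 at Ece2, against a class median of 0.607. With H2AK119ub alone, where the class median was 0.689, it was 0.557 at Edn1 and 0.251 at Edn2. The Ece1 starts of that class had 0.777, 0.742, 0.656 and 0.238.

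**Figure D2:**
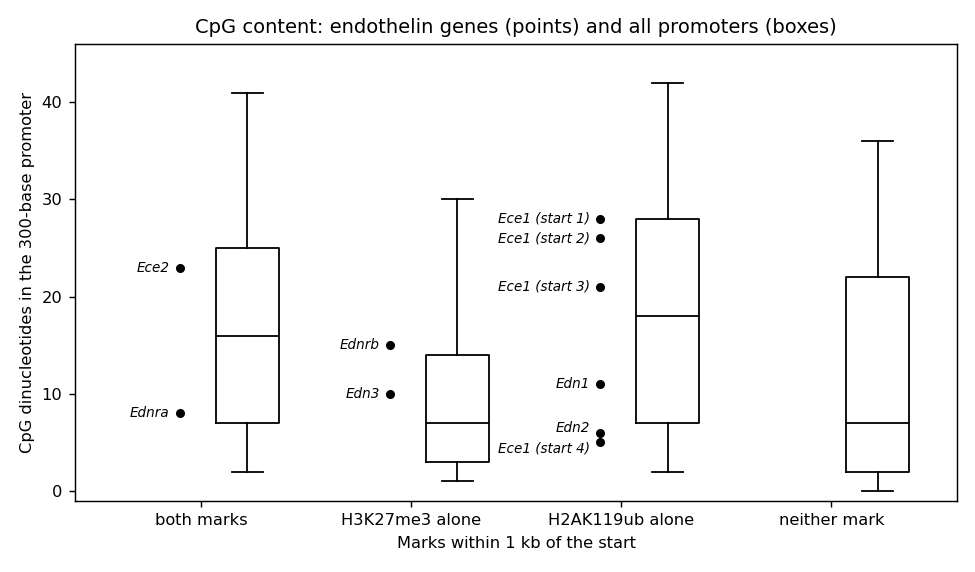
Number of CpG dinucleotides in the promoter window (y axis) by the marks called within 1 kb of the start (x axis). Points are the endothelin genes, boxes show the median and quartiles of all promoter windows of the class and whiskers the percentiles from 5 to 95. Ednrb with 15 and Edn3 with 10 lie above the median of 7 for H3K27me3 alone. Edn2 with 6 lies below the median of 18 for H2AK119ub alone, and the Ece1 starts lie on both sides of it. Ece2 with 23 lies above the median of 16 for both marks.

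Short motifs were searched on both strands of the same windows. The hypoxia response core ACGTG was present at Edn1, at Ece2 and at the third Ece1 start, and in 21.1% of all windows. The GATA motif AGATAA was present at Edn1 alone among the members and in 9.69% of all windows, on the minus strand with its leftmost base 9 bases into the transcript. The GC box GGGCGG was found at Ece1 and Ece2 and in 46.7% of all windows. None of the members' windows held the TATA box TATAAA (12.7% of all windows), the AP-1 motif TGANTCA (7.04%) or the MITF E-box CATGTG (11.6%). These are matches of letters and say nothing about binding.

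Edn1, on chromosome 13 from 42301476 to 42307990, lay wholly inside H2AK119ub. The region spanned 22.5 kb (chr13:42291488-42313995), from 9.99 kb before the start to 12.5 kb after it, and covered all 6515 bases of the gene. The window held 6 H2AK119ub regions of 5.49 to 22.5 kb, which covered 60.4% of its 106.5 kb. Of all protein-coding genes 74.8% had a lower covered share. H3K27me3 was limited in this window to a region of 1.56 kb, 35.8 kb upstream of the start (chr13:42264104-42265660), which lay entirely within H2AK119ub. The nearest H3K27me3 region was farther away than this at 54.9% of genes with a known strand. No other protein-coding gene lay in the window.

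Edn2, on chromosome 4 from 120161206 to 120167360, lay in the widest region of any member. A 122.3 kb H2AK119ub region (chr4:120112866-120235179) reached from 48.3 kb upstream of the start to 74.0 kb downstream, and 96.6% of H2AK119ub regions over a transcript start were narrower. It covered 98.4% of the window, a share exceeded by 1.9% of protein-coding genes. H3K27me3 began 13.1 kb downstream of the start, beyond the end of the gene, in regions of 17.3 kb (chr4:120174288-120191614) and 7.03 kb (chr4:120209808-120216837). Both lay inside the H2AK119ub region, and H3K27me3 covered 48.7% of the 50 kb downstream and none of the 50 kb upstream. The 17.3 kb region held the long noncoding RNA gene Gm36073 and an end of another, Gm36013, and the noncoding gene Gm36134 overlaps Edn2 itself. An end of Hivep3, which encodes a zinc finger transcription factor, lay in the same H2AK119ub region.

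Edn3, on chromosome 2 from 174760619 to 174784042, had H3K27me3 at its start and nothing else in the window. The region of 2.76 kb (chr2:174759609-174762369) ran from 1.01 kb before to 1.75 kb after the start. Only 3.11% of the 2995 H3K27me3 regions over a transcript start, on autosomes and X, were narrower, and their median was 12.8 kb. Over the 2631 autosomal ones the median was 11.4 kb. It covered 7.48% of the gene body and 2.24% of the window. The nearest H2AK119ub region lay 81.5 kb upstream of the start, and 21.4% of genes with a known strand had theirs farther away. The end of Zfp831, a zinc finger gene, was the other protein-coding end in the window and carried neither mark.

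Ednra, on chromosome 8 from 77663029 to 77724452 and read from the higher coordinate, had both marks nested at the start. H3K27me3 covered 4.03 kb (chr8:77721898-77725928), from 1.48 kb before to 2.55 kb after the start. H2AK119ub covered 8.10 kb (chr8:77719214-77727315), from 2.86 kb before to 5.24 kb after it, so that all of the H3K27me3 region lay within it. Both regions were narrow for their list, with 7.75% and 19.2% of regions over a start narrower. Away from the start the 61424-base body held neither mark, and the covered shares of the body were 4.16% for H3K27me3 and 8.53% for H2AK119ub. The noncoding gene LOC108167319 has an end under the same regions. Past the 3' end, a 5.52 kb H3K27me3 region (chr8:77629775-77635294) shared 36.9% of its length with a 3.01 kb H2AK119ub region.

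Ednrb, on chromosome 14 from 103814615 to 103844508 and also read from the higher coordinate, resembled Edn3. Its H3K27me3 region of 4.50 kb (chr14:103841133-103845630) ran from 1.93 kb before to 2.57 kb after the start in the promoter table at 103843701, and held the higher annotated end of the gene as well. Of H3K27me3 regions over a start, 10.2% were narrower. The region covered 11.3% of the body and 3.46% of the window, and no other region of either mark met the window. The nearest H2AK119ub region was 186.4 kb away on the downstream side, and 15.3% of genes with a known strand had theirs farther away. The noncoding gene Gm35197 overlaps Ednrb and carried neither mark at its own ends.

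Edn3 and Ednrb thus shared the combination of H3K27me3 within 1 kb of the start and no H2AK119ub in the window. This combination was found at 211 of the 17274 genes with a known strand (1.22%), which is 5.67% of the 3724 genes with H3K27me3 at a start. The combination was not among the planned counts and matches what Edn3 and Ednrb showed, so its share is a description only. A split by gene density was added after these values had been seen. Of the 2248 genes with no other protein-coding gene in the window, 39.6% had no H2AK119ub there, against 27.3% of the 3802 genes with 1 other gene and 19% of the 15581 genes with 2 or more. Ednrb, Edn1 and Ednra had no other protein-coding gene in the window, Edn3, Edn2 and Ece1 had 1, and Ece2 had 8. H3K27me3 without H2AK119ub in the window was found at 8.45%, 4.94% and 2.74% of genes in these 3 density classes, and at 2 of the 7 members against 3.72% of all genes. The part of gene density in the pattern at Edn3 and Ednrb was not tested.

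**Figure D3:**
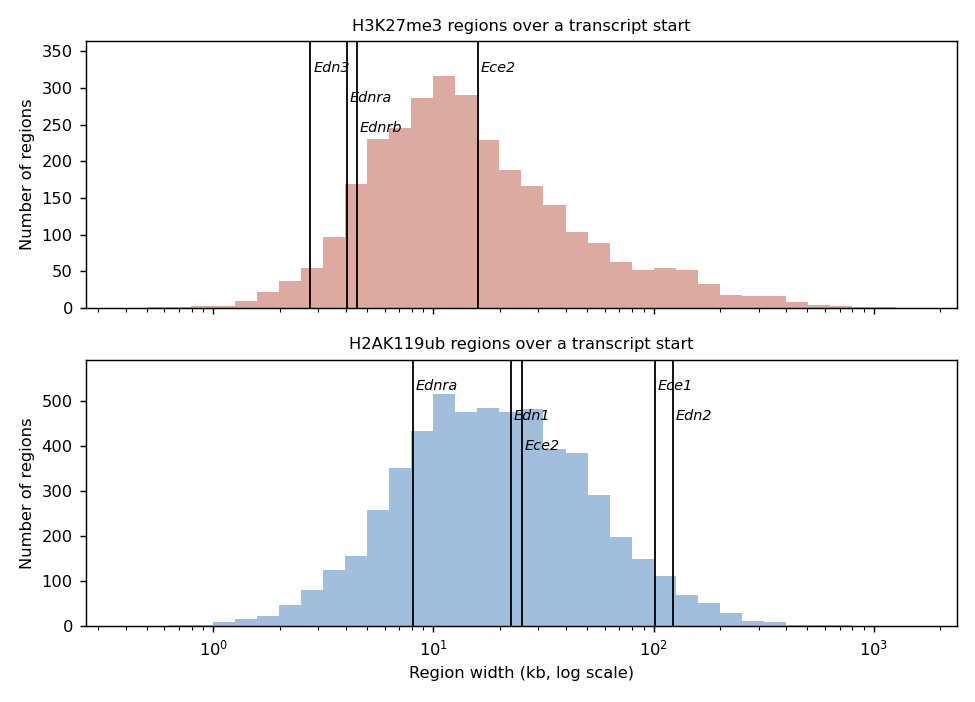
Widths of all called regions over a transcript start, on autosomes and X together, on a log scale in kb (x axis). The y axis is the number of regions per bin. The autosomal medians are 11.4 kb for H3K27me3 and 17.7 kb for H2AK119ub. Vertical lines mark the regions over the starts of the endothelin genes. The H3K27me3 regions of Edn3, Ednra and Ednrb (2.76, 4.03 and 4.50 kb) lie in the lower tail of a distribution with a median of 12.8 kb, while the H2AK119ub regions of Ece1 and Edn2 (101.2 and 122.3 kb) lie in the upper tail of one with a median of 18.5 kb.

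Ece1, on chromosome 4 from 137862237 to 137965229, encodes the main enzyme that cuts the big endothelin precursors. All 4 of its transcript starts lay in the same 101.2 kb H2AK119ub region (chr4:137827843-137929003), which was wider than 95% of regions over a start. A region of 19.5 kb followed inside the gene, and H2AK119ub covered 83.9% of the body, 96.2% of the 50 kb upstream and 46.1% of the 50 kb downstream. At the 3' end a 4.77 kb region reached 171 bases into the gene. No H3K27me3 region met the body. The one nearest to the first start, of 10.4 kb (chr4:137825468-137835836), ended 26.4 kb upstream of it, and 89.7% of that region lay in H2AK119ub. A 13.8 kb region farther upstream and a 5.73 kb region downstream lay wholly in H2AK119ub.

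Ece2, on chromosome 16 from 20629851 to 20645915, encodes a related enzyme that works at acidic pH. Its start lay in a 16.0 kb H3K27me3 region (chr16:20618018-20633994) and a 25.3 kb H2AK119ub region (chr16:20612022-20637294), and the H3K27me3 region lay wholly within the H2AK119ub region. These widths were close to the middle of their lists, with 59.3% and 61.6% of regions over a start narrower. Most of the H3K27me3 region lay upstream of the start, by 11.8 kb against 4.14 kb downstream, and it also held the whole of Camk2n2, an inhibitor of calmodulin-dependent kinase, and an end of the methyltransferase gene Eef1akmt4. The mark at Ece2 therefore cannot be assigned to Ece2 rather than to these neighbours, and a readthrough gene joins Eef1akmt4 with Ece2. H3K27me3 covered 25.8% of the body and 55.7% of the 50 kb upstream, which was the highest upstream share of the 7 genes. A 4.07 kb H2AK119ub region lay over the 3' end.

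Over the body plus 50 kb, H3K27me3 was present at all 7 genes, against 57.2% of all protein-coding genes, and H2AK119ub at 5 of the 7, against 77.4%. The windows held 12 H3K27me3 regions, of which 4 met a body, and 26 H2AK119ub regions, of which 8 did. The covered share of the window ran from 1.46% at Edn1 to 27.6% at Ece2 for H3K27me3, with a median of 5.92%, against 2.9% for all genes. For H2AK119ub it ran from 0% at Edn3 and Ednrb to 98.4% at Edn2, with a median of 57.5%, against 24.5% for all genes. The quartiles over all genes were 0% and 15% for H3K27me3, and 1.67% and 60.7% for H2AK119ub. Both medians of the members lay between these quartiles. Where H2AK119ub was present, most of the H3K27me3 length lay in it, while Edn3 and Ednrb had no H2AK119ub. Such overlap was common. Over all protein-coding genes the mean covered share of the window was 12.6% for H3K27me3 and 9.27% for both marks together. At Edn2, H2AK119ub over 98.4% of the window left little room for H3K27me3 outside it. Of the H3K27me3 length in the window, H2AK119ub held all at Edn1 and Edn2, 95.8% at Ece2, 94.8% at Ece1 and 63.5% at Ednra. Conversely, H3K27me3 held 2.42% of the H2AK119ub length at Edn1, 12.4% at Ece1, 23.3% at Edn2, 39.7% at Ednra and 45.9% at Ece2.

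**Figure D4:**
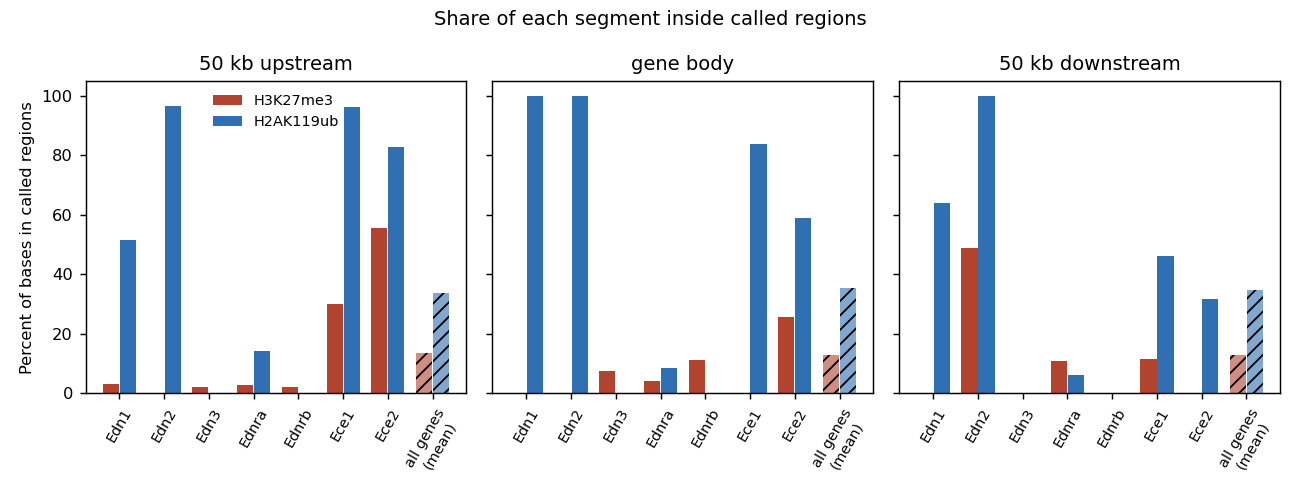
Percent of bases inside called regions (y axis) in the 50 kb upstream, the gene body and the 50 kb downstream of each endothelin gene, in its direction of transcription, beside the mean over all protein-coding genes (hatched; for the flanks, those with a known strand). H2AK119ub fills the bodies of Edn1 and Edn2 and is absent at Edn3 and Ednrb, and H3K27me3 stays at or below 25.8% of each body.

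The genes whose coverage was most like that of a member were found by the Euclidean distance over 6 values. These were the percent covered by each mark in the body and in the 50 kb on either side. The sides were the lower and upper by coordinate, so the direction of transcription was not taken into account. Edn3 was closest to Stmn2 (0.862 percentage points) and Rfx6 (1.6), and 73 genes lay within 5 points of it. Ednrb was closest to Kcnv1 (0.571) and Fam227b (2.26), with 26 genes within 5 points. For Edn1 the closest genes were Macrod1 (3.53) and Per2 (4.08), and for Edn2 Colgalt1 (2.42) and Slco2a1 (4.74), with 4 and 2 genes within 5 points. No gene lay within 5 points of Ednra, Ece1 or Ece2, whose closest genes were Med12l (6.74) and Htr2a (9.17), Prss55 (11) and Sirpa (11.4), and Gm45929 and Ttc7b (25.3 each).

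A list of 34 other genes joined those of endothelin processing and signalling with 5 regulators or partners in melanocytes. Most carried H2AK119ub at an end, which need not be a transcript start. Of the 34 genes 32 had H2AK119ub within 1 kb of an end and 13 had H3K27me3, against 57.1% and 24.7% of all protein-coding genes. H2AK119ub alone was found at 20, both marks at 12, H3K27me3 alone at 1 and neither at 1. Shares of all genes in these classes were not computed for either end, so the class counts have no background here. The list's median covered share of the window was 4.91% for H3K27me3 and 49.2% for H2AK119ub, against 2.9% and 24.5% for all genes.

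Among 8 genes of precursor processing and peptide breakdown, 4 had H3K27me3 and 7 had H2AK119ub, against 24.7% and 57.1% of all protein-coding genes. Mme, which encodes the endothelin-degrading protease neprilysin, had H3K27me3 alone within 1 kb of its ends, in a region of 8.59 kb. Pcsk6, a proprotein convertase gene, had both marks, with an H3K27me3 region of 21.9 kb and an H2AK119ub region of 87.5 kb. Furin, a convertase of the endothelin precursors, and Kel, which cuts big endothelin 3, had H2AK119ub alone in regions of 59.7 and 7.31 kb, and were named here after their values were seen. Neither mark was called within 1 kb of a transcript start of Kel.

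Among 21 genes of receptor coupling, 5 had H3K27me3 and 20 had H2AK119ub, against 24.7% and 57.1% of all protein-coding genes. The H3K27me3 count thus lay near the background. H2AK119ub alone was widest at the G protein gene Gnai2 (155.4 kb), the arrestin gene Arrb1 (88.0 kb), the protein kinase C gene Prkce (84.4 kb) and the G protein gene Gna11 (82.6 kb). Plcb2, a phospholipase C gene, had both marks (29.8 kb of H3K27me3 and 75.0 kb of H2AK119ub), and Gna13 had neither. Of 5 regulators or partners in melanocytes, 4 had H3K27me3 and all had H2AK119ub, against the same 24.7% and 57.1%. The H3K27me3 region at Pax3 was 145.6 kb wide and its H2AK119ub region 73.9 kb, and the widths were 17.5 kb and 80.5 kb at Sox10, a transcription factor that activates Ednrb.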

How the data were processed

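Per the labels' protocols, each library took 5 ng of DNA and was read once from 1 end for 75 nt. For each mark the authors deposited a list that gives, per the file headers, the chromosome, start and end of every region. The submitters' processing notes name Bowtie2 2.3.3.1, SAMtools 1.9 and the build mm10. How regions were called, at which threshold, with or without the input and from which libraries is not given in the sources used here. Those choices decide how many regions exist and how wide they are. An uncalled gene may carry a mark below an unknown threshold, and a width is not an amount of mark.

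The start column was taken to count from 0, and positions are given counting from 1. An overlap of 1 bp counted. Gene positions and promoter sequences came from RefSeq tables of GRCm38.p6 (mm10). All 7 members matched both tables, and 17274 of 21631 protein-coding genes on the 19 autosomes and X had a strand. Protein sequences were not used here. All values are counts, widths and covered lengths computed with Python 3.11.15, and no test was made. Interval counts were tested on simulated data, with 0 mismatches in 2000 windows. Members, lists and comparisons were chosen with earlier results of these data known. All members were named. From the 34-gene list, the text names at most 4 of each class, those whose region at an end was widest, and besides these Furin and Kel, chosen after their values were seen.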

Additional observations from a re-analysis of the deposited data

How the results depend on the processing

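Of 41 alternative settings for the counts and medians over the members, 37 stayed within 1.5 times the reported value. The 37 include settings that could change little. Cutting the lists to an equal size kept all 15102 H3K27me3 regions, so the H3K27me3 counts could not change. Counting the start column from 1 moved each region start by 1 base. Of 56 alternatives for the covered shares of single genes, 16 did not. The H3K27me3 share at Edn1, 1.46% with 50 kb on each side, was 0% with 10 kb and 6.77% with 100 kb, and that at Ece1, 10.2%, was 0% and 19.9%. H3K27me3 was called at either end of 4 genes, but at both ends of 0 and, when the list was limited to regions at least as wide as its median of 8.43 kb, at 1 (Ece2). H3K27me3 in body plus 50 kb fell to 4 genes with the body alone and to 3 with the wider regions, compared with 7. H3K27me3 at Edn3, Ednra and Ednrb therefore rests on short regions. Limiting the list to wider regions removes regions at other genes too, and shares of all genes under that setting were not computed. The falls with the wider regions thus cannot be read as particular to the endothelin genes. The H2AK119ub counts stayed between 4 and 6 of the 7 genes in every setting tried. Edn3 gained H2AK119ub with 100 kb on each side and Ednra lost it at equal list sizes, while Ednrb had none in any setting. No paired analysis was possible because the lists hold no value per library, and leaving out a replicate was not run for the same reason. Depth per library is unknown.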

Other observations

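Some regions outside the endothelin genes lay at ends of other annotated genes. At Ece1 the downstream H3K27me3 and H2AK119ub regions (5.73 and 6.99 kb) lay over the lower end of Eif4g3, a translation initiation factor gene. At Ece2 the H3K27me3 region upstream of the one over its start, 16.0 kb wide, lay over an end of Vwa5b2. The proteasome gene Psmd2, next to Ece2, had neither mark at its ends. At Ednra the H3K27me3 region past the 3' end lay within 1 kb of an end of each of the noncoding genes 1700092C02Rik and 4933431K23Rik.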
